A study of Mus musculus with 3 samples.

Results

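The 9 genes described here encode proteins that bind the mRNAs of Tnf, Il6 and other cytokines and set how long these mRNAs last. They are Zfp36, Zfp36l1, Zfp36l2, Zc3h12a, Rc3h1, Rc3h2, Elavl1, Hnrnpd and Khsrp. They were taken by gene symbol, 9 of the 17239 symbols in the tables, by a rule that uses the symbol alone. All 9 had 1 row in the tables and all were detected in every library. The values come from BM cells of C57BL/6 mice aged 6-8 weeks, flushed from femur, tibia, pelvis and humerus after 0, 3 or 5 days of recombinant LECT2 (day 0, day 3 and day 5 below). LECT2 was given under the skin at 300 μg per kg daily, and the 0-day group had 0 days of LECT2. The labels do not say whether the 0-day mice had any other injection. The methods describe male mice and killing at 4 h after the last injection of the 5-day course. The labels name no vehicle-injected group and do not say how many mice stand behind a library. There was 1 library per time point, so no difference below has a replicate check and no test between time points was made.

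Many cytokine mRNAs are short-lived because of elements in the part of the transcript that follows the stop codon. One kind is the AU-rich element, built from repeats around the letters TATTTAT in the DNA. The zinc finger proteins of the Zfp36 family bind it and bring in the deadenylase complex that shortens the poly(A) tail, and Khsrp and Hnrnpd (also called AUF1) bind such elements as well. Elavl1 (HuR) also binds them, and is best known for making the bound mRNA last longer. The other kind is a small hairpin with a loop of 3 bases, which is bound by the roquin proteins, Rc3h1 and Rc3h2, and cut by the endonuclease Zc3h12a (regnase-1). In myeloid cells Zfp36, Zc3h12a and the roquins are known to restrain mRNAs such as Tnf and Il6, and Zfp36l2 is known for its part in blood formation.

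Sites from GENCODE M21 transcripts (GRCm38) that match these elements are printed, from a target and from the mRNAs of the regulators themselves. In the first 3 lines the capitals mark the heptamer TATTTAT. The Tnf stretch lies at chr17:35199677-35199706 on the minus strand, the Zfp36 stretch at chr7:28376958-28376987 on the minus strand and the Elavl1 stretch at chr8:4285776-4285805 on the minus strand.
Tnf AU-rich stretch: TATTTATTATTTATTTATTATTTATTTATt
Zfp36 AU-rich stretch: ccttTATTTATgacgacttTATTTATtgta
Elavl1 AU-rich stretch: TATTTATTTATTTATTTATtttTATTTATt
In the next 4 lines the capitals mark the loop, and the bases on its 2 sides pair with each other. The Tnf hairpin lies at chr17:35199585-35199599 (minus strand), that of Rc3h1 at chr1:160971660-160971674 (plus strand), that of Rc3h2 at chr2:37373809-37373823 (minus strand) and that of Zc3h12a at chr4:125119069-125119083 (minus strand).
Tnf hairpin: gttttcTGTgaaaac
Rc3h1 hairpin: aacttcTGTgaagtt
Rc3h2 hairpin: aacttcTGTgaagtt
Zc3h12a hairpin: gatacaCATtgtatc
The hairpins of Rc3h1 and Rc3h2, on 2 different chromosomes, are the same over all 15 bases, and they share the loop of the Tnf hairpin.

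The members were searched for both elements on the transcript strand, with overlapping copies counted separately. The heptamer was found after the stop codon of 6 of the 9 members, and of 27.9% of the 9900 genes searched. Zfp36 held 3 copies, 3.88 per 1000 bases, against 0.288 per 1000 bases over all genes. Zfp36l1, Zfp36l2 and Rc3h2 also held 3 copies each, Rc3h1 held 2 and Elavl1 held 8. Thus 5 members had at least 3 copies, as did 3.51% of all genes searched. The Rc3h1 stretch has 7181 bases and the median stretch 994 bases, so long stretches have more room for a match. A hairpin of at least 5 Watson-Crick pairs around a loop of pyrimidine, purine and pyrimidine was found in Zc3h12a (3 times), Rc3h1 (4 times), Rc3h2 (2 times) and Hnrnpd (once), and in 22.8% of all genes. A pair of the Rc3h1 matches overlap in a single run made of T and A alone. Khsrp held neither element. Among the 14 cytokine and inflammatory target mRNAs listed, 12 held the heptamer, with 8 copies in Tnf and 1 in Il6. The hairpin was found in Tnf, Ptgs2, Ier3, Nfkbiz and Nfkbid. It was not found in the other targets, Il6 among them. A match of letters is a description and does not show that the protein binds there.

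**Figure D1:**
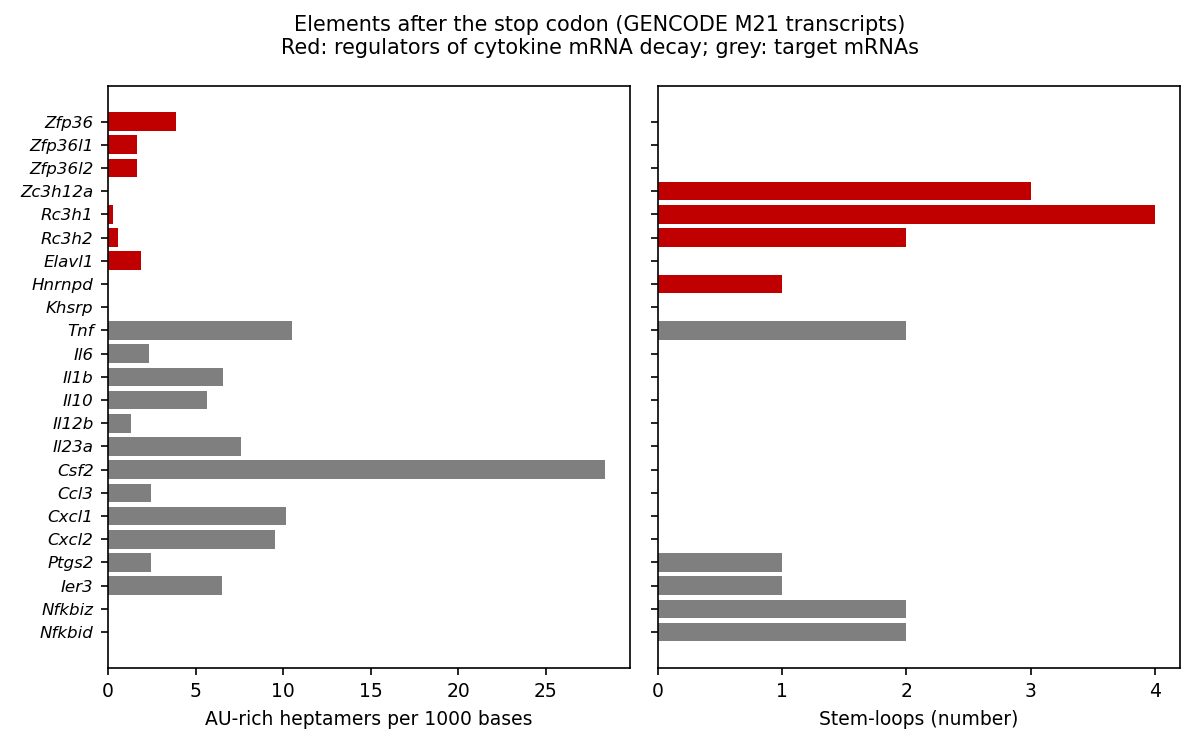
Heptamers per 1000 bases (left) and number of hairpins (right) after the stop codon, 1 bar per gene, with the regulators in red and 14 target mRNAs in grey. Zfp36 has the densest heptamers of the regulators at 3.88 per 1000 bases, below the 10.5 of Tnf, and Khsrp has neither element.

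Depth was even, with 15523952 reads on genes in the day 0 library, 15146983 in the day 3 library and 15514673 in the day 5 library. Levels are given as RPKM, the reads corrected for the length of the transcript and for the depth of the library, and 1 read on a transcript of 1000 bases was worth 0.0644 to 0.0660 RPKM. Changes are log2 ratios of RPKM + 0.1, so that changes of weakly expressed genes are understated, with 95% exact intervals of the ratio of the read counts that cover counting error only. The 100 genes with the highest mean RPKM took 24.8% of the reads on day 0 and 13.5% on day 5. The median log2 ratio over 11143 genes was 0.10 on day 3, 0.31 on day 5 and 0.25 between day 3 and day 5. TMM scaling, which assumes that most genes do not change, brought these medians to 0.02, 0.01 and 0.03. Under it the split of genes at least 2-fold higher and lower went from 1786 and 680 to 816 and 1161 on day 5, from 462 and 272 to 353 and 368 on day 3, and from 222 and 394 to 66 and 556 between day 3 and day 5. The ratio also rose with gene length, and each member is therefore given with the length trend removed too. Markers of the cells of BM, such as Mpo, Ltf and Cd79a, were abundant in all libraries.

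On day 5 the 9 regulators did not move together. The levels of Zfp36 and Zc3h12a were at least 2-fold lower than on day 0, that of Khsrp was at least 2-fold higher with the deposited scaling only, and the other 6 stayed within 2-fold. The count of 2 lower members stands against 5.92% of all genes with at least 1 RPKM, and the count of 1 higher member against 15.5%. The 1 higher member is about what that background gives for 9 genes. On day 3, 0 members were 2-fold higher and 0 were 2-fold lower, where 4.08% and 2.40% of all genes were. From day 3 to day 5, 1 member was 2-fold lower (Zfp36) and 0 were higher, against 3.46% and 1.95% of all genes. The median log2 ratio of the members was 0.11 on day 3, 0.33 on day 5 and 0.07 from day 3 to day 5, beside the 0.10, 0.31 and 0.25 of all genes. With the length trend removed these medians turned to −0.28, −0.52 and −0.25, beside 0.0016, 0.0018 and −0.0020 of all genes. The comparisons with day 0 share that library, so they are not independent of each other.

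**Figure D2:**
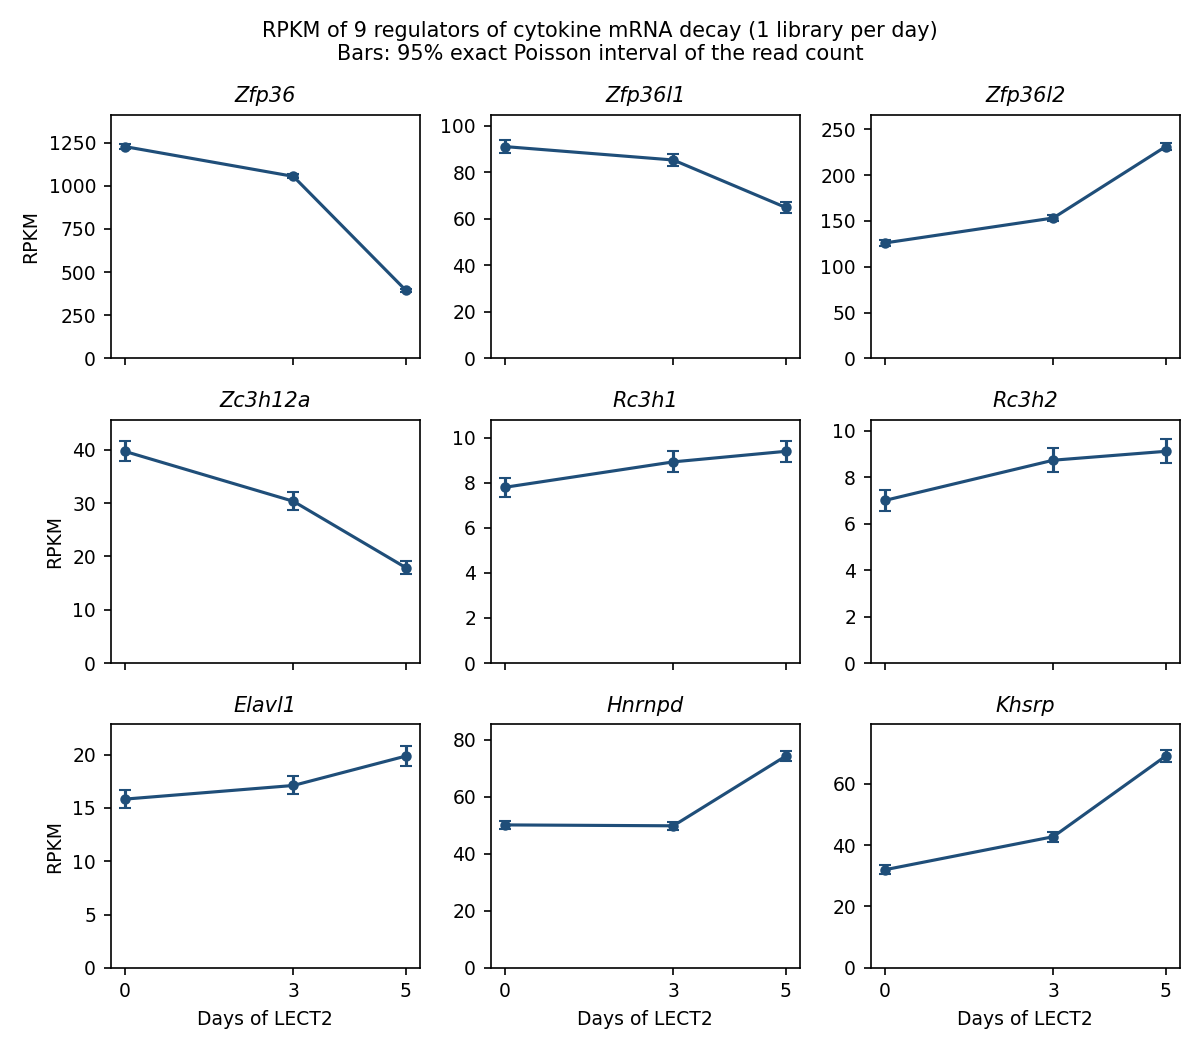
RPKM of the 9 regulators (y axis, from 0) against days of LECT2 (x axis), 1 library per point, with bars for the 95% exact Poisson interval of the read count. Zfp36 goes from 1228 to 395 RPKM and Zc3h12a from 39.7 to 17.9, while Khsrp goes from 31.9 to 69.0 and Zfp36l2 from 126 to 231.

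Zfp36, the gene of tristetraprolin, lies on chromosome 7 (28376784 to 28380253, minus strand). It had 33648 reads on day 0, 28208 on day 3 and 10810 on day 5, which is 1228, 1055 and 395 RPKM. It was by far the most abundant regulator, above 99.6% of the genes with reads on day 0 and still above 99.1% on day 5. Its log2 ratio was −0.22 (−0.24 to −0.20) on day 3 and −1.64 (−1.67 to −1.61) on day 5, a level 3.11-fold lower. Most of the fall therefore lay between day 3 and day 5, with a log2 ratio of −1.42. The value on day 5 was −1.95 under TMM scaling and −1.74 with the length trend removed. Markers of late neutrophils moved the same way on day 5. Of the 10 that reached a mean of 1 RPKM, 10 lay 2-fold or more lower, against 5.92% of all genes. The summed level of the list went from 139206 to 107912 and 38238 RPKM. Of 14 immediate early genes, which cells switch on soon after a stimulus, 13 were at least 2-fold lower on day 5, against the same 5.92%. Their sum went from 4948 to 4143 and 1332 RPKM. The part of either in the fall of Zfp36 was not tested. In such bulk samples, fewer cells of a type and less RNA per cell cannot be told apart.

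The paralogs of Zfp36 took different courses. Zfp36l1 (chromosome 12, 80107754 to 80113013, minus strand) had 4222, 3858 and 3006 reads, or 91.1, 85.4 and 64.9 RPKM on days 0, 3 and 5. It was lower in the later libraries, with a log2 ratio of −0.49 (−0.56 to −0.42) on day 5, −0.80 under TMM scaling and −0.91 with the length trend removed. In GENCODE M21, 55.9% of its exon bases lie opposite exons of the noncoding gene Gm26669, and the library kit did not mark strand, so reads of the 2 genes cannot be told apart there. Zfp36l2 (chromosome 17, 84183931 to 84187947, minus strand) had 6917, 8213 and 12693 reads, or 126, 153 and 231 RPKM. It was the only one of the 3 paralogs that was higher on day 5, with a log2 ratio of 0.88 (0.83 to 0.92), 0.57 under TMM scaling and 0.35 with the length trend removed.

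The makeup of the family shifted, and this makeup does not depend on how the libraries were scaled, though the trend on gene length bears on it. Zfp36 made up 85.0% of the summed RPKM of the family on day 0, 81.6% on day 3 and 57.1% on day 5. The share of Zfp36l2 went from 8.72% to 11.8% and 33.5%, and that of Zfp36l1 from 6.31% to 6.60% and 9.40%. Zfp36 thus stood 9.75-fold (9.50 to 10.01) above Zfp36l2 on day 0, 6.88-fold (6.72 to 7.05) on day 3 and 1.71-fold (1.66 to 1.75) on day 5, or 2.29-fold on day 5 with the length trend removed. The summed level of the family was 1445, 1294 and 691 RPKM.

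**Figure D3:**
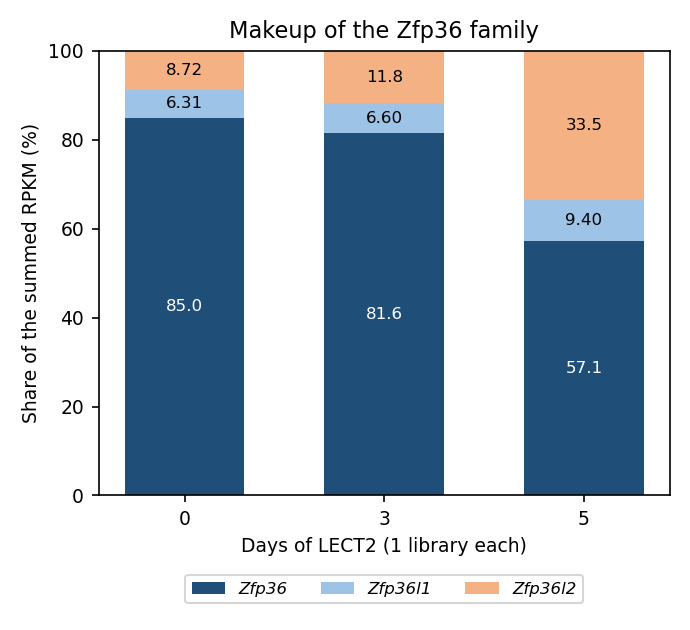
Share of the summed RPKM of the Zfp36 family (y axis, percent) taken by each paralog on days 0, 3 and 5 of LECT2, 1 library each. The share of Zfp36 is 85.0% on day 0 and 57.1% on day 5, and that of Zfp36l2 is 8.72% and 33.5%.

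Among the proteins that act on hairpins, the endonuclease and the roquins also differed. Zc3h12a (chromosome 4, 125118423 to 125127840, minus strand) had 1729 reads on day 0, 1289 on day 3 and 779 on day 5, or 39.7, 30.3 and 17.9 RPKM. Its log2 ratio was −0.39 (−0.49 to −0.28) on day 3 and −1.14 (−1.27 to −1.03) on day 5, a level 2.22-fold lower. It fell in each step, by 0.39 up to day 3 and by 0.76 from day 3 to day 5 on the log2 scale. The value on day 5 was −1.45 under TMM scaling and −1.53 with the length trend removed. The late neutrophil markers and immediate early genes given for Zfp36 were also lower on day 5, and their part was not tested. On day 3, 3 of the 10 markers and 3 of the 14 immediate early genes were higher than on day 0.

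Rc3h1 (roquin-1, chromosome 1, 160906418 to 160974978, plus strand) had 1332, 1488 and 1604 reads, or 7.79, 8.92 and 9.39 RPKM. Rc3h2 (roquin-2, chromosome 2, 37370069 to 37422903, minus strand) had 975, 1187 and 1269 reads, or 6.99, 8.73 and 9.11 RPKM. Both were slightly higher on day 5 with the deposited scaling, with log2 ratios of 0.27 (0.16 to 0.37) and 0.38 (0.26 to 0.50), close to the median of all genes. Under TMM scaling these were −0.04 and 0.07, and with the length trend removed −0.71 and −0.52, so their direction depends on the processing. Their transcripts are the longest of the members, with 11011 and 8981 bases. The ratio of Rc3h1 to Rc3h2 was 1.11 (1.03 to 1.21) on day 0, 1.02 (0.95 to 1.10) on day 3 and 1.03 (0.96 to 1.11) on day 5. The intervals on days 3 and 5 include 1, so the paralogs could not be ranked there at this depth. Zc3h12a stood 5.10-fold (4.74 to 5.48) above Rc3h1 on day 0, 3.40-fold (3.15 to 3.67) on day 3 and 1.91-fold (1.75 to 2.08) on day 5, or 2.88-fold on day 5 with the length trend removed.

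The 3 remaining regulators bind AU-rich or related elements and belong to other protein families. Khsrp (chromosome 17, 57021051 to 57031522, minus strand), a KH domain protein that promotes decay, had 1984, 2590 and 4283 reads, or 31.9, 42.7 and 69.0 RPKM. Its log2 ratio was 0.42 (0.34 to 0.51) on day 3 and 1.11 (1.03 to 1.19) on day 5, a level 2.16-fold higher. The value on day 5 was 0.80 under TMM scaling and 0.53 with the length trend removed, both under 2-fold. Monocyte and macrophage markers were higher too, with 5 of 8 at least 2-fold higher on day 5 (3 of 8 under TMM scaling), against 15.5% of all genes, and a sum of 1228, 1493 and 1879 RPKM, and their part was not tested. Hnrnpd (chromosome 5, 99955935 to 99978938, minus strand) had 5305, 5144 and 7855 reads, or 50.2, 49.9 and 74.3 RPKM. With the deposited scaling its levels on days 0 and 3 differed by no more than counting error, with a log2 ratio of −0.01 (−0.06 to 0.05), but the ratio was −0.09 under TMM scaling and −0.51 with the length trend removed. On day 5 it was 0.57 (0.52 to 0.62), 0.26 under TMM scaling and −0.23 with the length trend removed, so its direction also depends on the processing. Elavl1 (chromosome 8, 4285382 to 4325413, minus strand) had 1482, 1563 and 1859 reads, or 15.8, 17.1 and 19.9 RPKM. Its log2 ratio on day 5 was 0.33 (0.23 to 0.43), beside 0.02 under TMM scaling and −0.42 with the length trend removed.

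**Figure D4:**
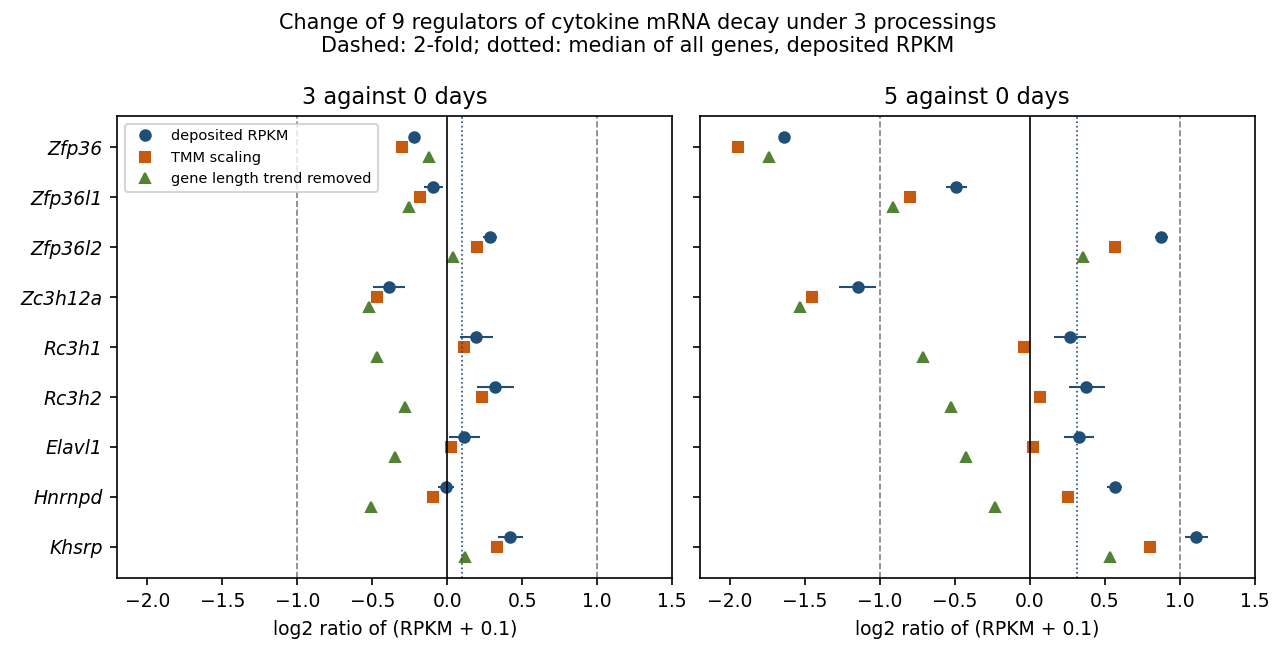
Log2 ratio of RPKM + 0.1 (x axis) of each regulator on day 3 and on day 5 against day 0, with the deposited scaling (circles, lines for 95% exact counting intervals), TMM scaling (squares) and the gene length trend removed (triangles). Zfp36 and Zc3h12a are below −1 on day 5 under all 3, Khsrp is above 1 only with the deposited scaling, and Rc3h1, Rc3h2, Elavl1 and Hnrnpd lie below 0 with the length trend removed.

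The order of the levels changed accordingly. On day 0 it was Zfp36, Zfp36l2, Zfp36l1, Hnrnpd, Zc3h12a, Khsrp, Elavl1, Rc3h1 and Rc3h2, and every neighbour in this order differed beyond counting error. On day 5 it was Zfp36, Zfp36l2, Hnrnpd, Khsrp, Zfp36l1, Elavl1, Zc3h12a, Rc3h1 and Rc3h2. With the deposited RPKM, Zc3h12a thus went from above Khsrp and Elavl1 to below both. With the length trend removed it was 1.16-fold above Elavl1 on day 5 and still below Khsrp, and Hnrnpd came to 0.927 of Khsrp. Several neighbours on day 5 were close, with Hnrnpd 1.08-fold (1.04 to 1.12) above Khsrp and Elavl1 1.11-fold (1.02 to 1.21) above Zc3h12a. Ratios within a library need no scaling, but they keep the trend on gene length. Zfp36 stood 77.6-fold (73.6 to 81.8) above Elavl1 on day 0 and 19.9-fold (18.9 to 20.9) on day 5. Against Khsrp the ratio of Zfp36 went from 38.4 (36.7 to 40.2) to 24.7 (23.7 to 25.7) and 5.72 (5.52 to 5.93), the lowest value being on day 5. With the length trend removed the ratios on day 5 were 31.2 to Elavl1 and 7.97 to Khsrp.

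The listed mRNAs that these proteins act on were lower on day 5. Of 14 listed target mRNAs, 12 averaged 1 RPKM or more, and each of the 12 was lower by 2-fold or more on day 5, against 5.92% of all genes, with a median log2 ratio of −3.20. This median was the same with Il23a, which had 0 reads on day 5, set to the floor of 3 reads. Tnf had 2313, 1483 and 166 reads, or 92.0, 60.5 and 6.61 RPKM, with a log2 ratio of −3.78 (−4.04 to −3.57) on day 5. Il6 had 1442, 636 and 181 reads, or 85.5, 38.6 and 10.7 RPKM, with a log2 ratio of −2.98 (−3.22 to −2.77). Both were already lower on day 3, when 4 of the 12 targets were at least 2-fold lower, against 2.40% of all genes. The most abundant targets were the chemokine Ccl3, with a log2 ratio of −1.63 on day 5, the chemokine Cxcl2, with −4.38, and Il1b, with −3.42. Further targets at least 2-fold lower averaging at least 5 RPKM were Cxcl1, Ptgs2, Ier3, Nfkbiz and Nfkbid, between −4.77 for Cxcl1 and −1.37 for Nfkbid. Several targets are known products of activated myeloid cells, and the late neutrophil markers and immediate early genes were lower in the same library, with a part that was not tested. The other targets, Il12b and Csf2, stayed below 1 RPKM in every library.

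The levels of 3 regulators are also given against Tnf within each library, a ratio that rises for any gene that fell less than Tnf. Zfp36 stood 13.3-fold (12.8 to 13.9) above Tnf on day 0, 17.4-fold (16.6 to 18.4) on day 3 and 59.7-fold (51.2 to 70.1) on day 5. Khsrp went from 0.347 (0.327 to 0.369) of the RPKM of Tnf to 10.4 (8.94 to 12.3), and Elavl1 from 0.172 (0.161 to 0.184) to 3.01 (2.56 to 3.55). The ratio of Zc3h12a to Il6 was 0.465 (0.433 to 0.499) on day 0, 0.785 (0.714 to 0.865) on day 3 and 1.67 (1.42 to 1.97) on day 5. These are ratios of mRNA levels in a mix of cells, and no decay rate was measured.

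The decay enzymes that the regulators recruit mostly had log2 ratios at or above the median of all genes. Of the 12 deadenylase genes with at least 1 RPKM, 4 were at least 2-fold higher on day 5 and 0 were lower, against 15.5% and 5.92% of all genes, with a median log2 ratio of 0.63. The 4 were Cnot1, the scaffold of the CCR4-NOT complex, with 22.4, 34.9 and 50.7 RPKM, Cnot3, with 21.8, 34.0 and 47.9, and the catalytic subunits Cnot6, with 13.3, 23.4 and 37.6, and Cnot6l, with 13.0, 23.0 and 30.9. Under TMM scaling 1 of them remained at least 2-fold higher. The more abundant Cnot2 and Cnot8 had log2 ratios of 0.44 and −0.07. Cnot7, which the naming rule does not name, is not among the 12. Its row carries the ID of a transcript and had 1, 1 and 2 reads, so it may not give the level of the gene. Of 11 genes of decapping and decay from the 5′ end, 4 were at least 2-fold higher and 0 lower, against the same 15.5% and 5.92%, with a median of 0.64. These were Dcp1a, Dcp2, Patl1 and, below the mean of 5 RPKM of the naming rule and added after its value was seen, the exonuclease Xrn1, with 2.07, 5.39 and 7.28 RPKM. Under TMM scaling 2 genes of this list were at least 2-fold higher. With the length trend removed 1 deadenylase gene and 1 decapping gene were. Over all genes the higher count fell too, from 1786 of 11494 to 816 under TMM scaling and 581 with the length trend removed. For lists of 12 and 11 genes, a count of 1 is near that background. The most abundant decapping genes, Ddx6, Lsm14a and Dcps, had log2 ratios of 0.44, 0.36 and 0.07.

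The adaptors BTG and TOB, which link bound mRNAs to the deadenylases, did not move together. Among the 4 that averaged 1 RPKM or more, 2 were lower by 2-fold or more on day 5, against 5.92% of all genes. Btg1 went from 442 to 306 and 160 RPKM, with a log2 ratio of −1.47 (−1.50 to −1.44), and Btg2 went from 348 to 278 and 104 RPKM, with −1.74 (−1.79 to −1.69). Tob1 had 20.4, 30.04 and 12.8 RPKM, the highest value being on day 3. Tob2, named after its values were seen, was higher in each later library, with 9.64, 14.3 and 19.1 RPKM and a log2 ratio of 0.98 on day 5. Btg2 is also in the immediate early list. Among 15 genes of the RNA exosome and its SKI helper complex, 2 were at least 2-fold higher on day 5 and 0 lower, with a median of 0.22, below that of all genes. The higher count is near the background of 15.5%. The nuclease Dis3 was the larger change, from 3.18 to 6.40 and 13.6 RPKM, and the other, Ttc37, fell under the naming rule and was added after its value was seen. The most abundant of the list, Exosc8, Exosc10 and Skiv2l, had log2 ratios of 0.00, 0.84 and 0.16. Of 8 genes of the UPF1 pathway, 1 was at least 2-fold higher (Smg1, 7.01 to 17.3 RPKM) and 0 lower, also near the background, with a median of 0.50. Under TMM scaling and with the length trend removed 0 genes of this list were 2-fold higher, and the median was 0.19 and −0.15. Among its most abundant genes, Upf3b and Upf3a had log2 ratios of −0.65 and −0.12.

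Other proteins that bind the same kinds of elements stayed within 2-fold with the deposited scaling. Of 11 with at least 1 RPKM, 0 were 2-fold higher and 0 lower on day 5, against 15.5% and 5.92% of all genes. With 11 genes, 0 is not far from that background. Their log2 ratios ran from −0.34 to 0.85, with a median of 0.59. The most abundant were Ybx1, with 193, 202 and 284 RPKM, Hnrnpdl, the paralog of Hnrnpd, with 92.9, 91.9 and 121, and Pum2, with 45.4, 56.2 and 62.7. The lowest ratio of the list was that of Arid5a, which is known to stabilize Il6 mRNA and went from 21.4 to 18.3 and 16.8 RPKM. With the length trend removed its log2 ratio was −1.07, past 2-fold. The related endonuclease genes Zc3h12c and Zc3h12d had low levels that were higher on day 5, with log2 ratios of 0.85 (0.60 to 1.19) and 0.84 (0.62 to 1.11), against −1.14 for Zc3h12a. These were 0.097, 0.26 and −1.53 with the length trend removed. Arid5a, Zc3h12c and Zc3h12d were named after their values were seen.

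The kinases, phosphatases and the protease that act on the regulators gave counts past 2-fold near the background. The p38 kinase Mapk14, upstream of the kinases that phosphorylate Zfp36, went from 45.2 to 76.6 and 91.2 RPKM, with a log2 ratio of 1.01 (0.94 to 1.08) on day 5. Mapkapk3, one of those kinases, went from 18.6 to 39.1 and 57.4 RPKM, with 1.62 (1.51 to 1.74). Dusp1, the phosphatase that shuts p38 off, went from 388 to 430 and 164 RPKM, with −1.24 (−1.29 to −1.20). These were the genes past 2-fold, 2 higher and 1 lower of 12, against 15.5% and 5.92% of all genes, and the median of the list was 0.39. Under TMM scaling Mapk14 was at 0.70, under 2-fold. Mapkapk2 and Ppp2ca, the other abundant genes of the list, had log2 ratios of 0.40 and −0.09. Dusp1 is also in the immediate early list.

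**Figure D5:**
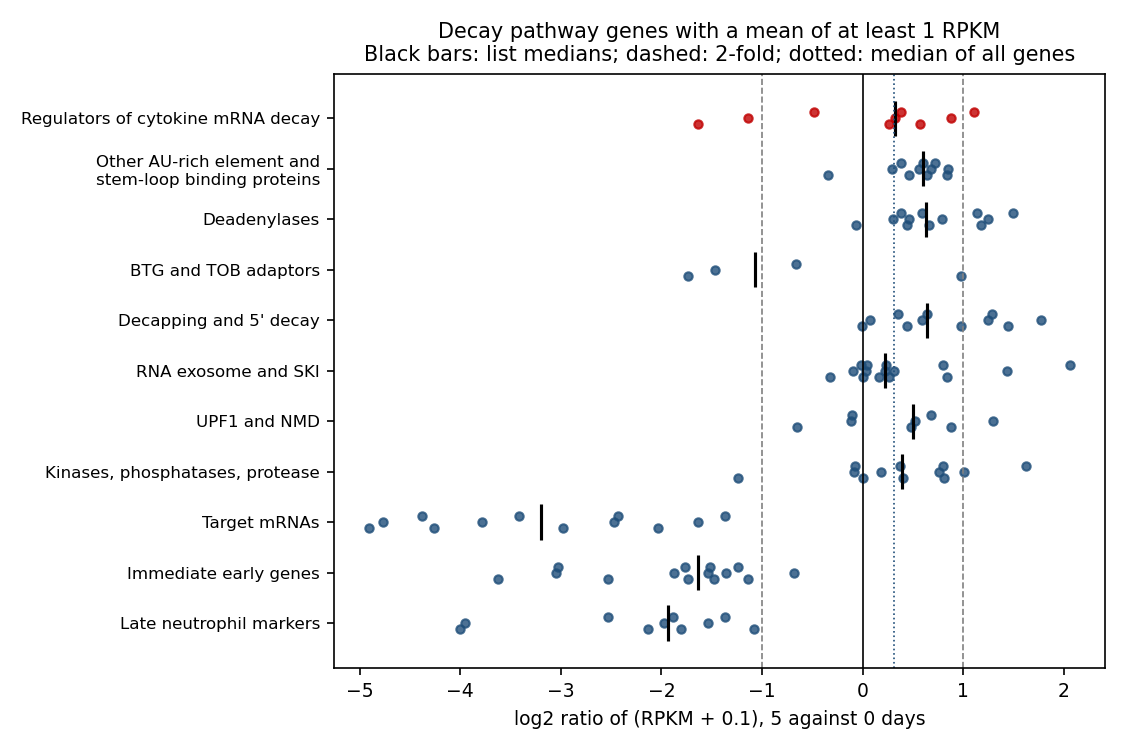
Log2 ratio of RPKM + 0.1 on day 5 against day 0 (x axis) for genes averaging at least 1 RPKM, 1 point per gene, by list, with the regulators in red, black bars at list medians, dashed lines at 2-fold and a dotted line at the median of all genes. The 12 target mRNAs lie at −1.37 or below, the leftmost being Il23a, which had 0 reads on day 5 and whose place is set by the pseudocount, while the medians of deadenylases and decapping genes are 0.63 and 0.64.

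The levels of other cell markers on day 5 are given for comparison. Beside them stand the 15.5% of all genes that were 2-fold higher and the 5.92% that were lower. Of 4 promyelocyte markers 1 was at least 2-fold higher, and their sum went from 2101 to 1974 and 3475 RPKM. Of 6 B cell markers 0 were past 2-fold, of 6 T and NK cell markers 1 was lower, and of 6 erythroid markers 2 were lower. No marker of these lists, nor of the monocyte list, was at 0 reads in any library, and all 11 late neutrophil markers with a row had reads. The row named Csf3r among those 11 carries the ID of a noncoding transcript and had 20 to 57 reads, so it does not give the level of the protein-coding gene.

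Genes with the course most like that of a member were found by the distance between pairs of log2 ratios, on day 3 and on day 5, over 3926 genes averaging at least 20 RPKM. The course has only 3 libraries, so many genes lie close. For Zfp36 the 5 nearest were Abtb1, Hbb-b1, Btg2, Slc27a4 and Ier2, at distances of 0.021 to 0.19. For Zc3h12a they were Ifitm1, Irf1, Sat1, Ly6i and Sc4mol, at 0.024 to 0.094. For Khsrp they were Prep, Rad9, Kpnb1, Slc38a1 and Rad23b, at 0.021 to 0.038.

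The stretch around the start of Zfp36 is printed because Zfp36 had the largest change of the members. RefSeq (GRCm38.p6) promoters, 250 bases before and 50 bases after the start, were found for 8 of the 9 members. They were searched on both strands for the cAMP element TGACGTCA, the AP-1 motif TGANTCA, the CArG box (the motif of serum response factor) and the NF-kB site. The Zfp36 stretch lies at chr7:28379179-28379478 on the minus strand, and the capitals mark its only match, a CArG box that begins 58 bases before the start. RefSeq and GENCODE place the start of Zfp36 differently, so that this stretch lies inside the GENCODE span of the gene given above.
Zfp36 promoter: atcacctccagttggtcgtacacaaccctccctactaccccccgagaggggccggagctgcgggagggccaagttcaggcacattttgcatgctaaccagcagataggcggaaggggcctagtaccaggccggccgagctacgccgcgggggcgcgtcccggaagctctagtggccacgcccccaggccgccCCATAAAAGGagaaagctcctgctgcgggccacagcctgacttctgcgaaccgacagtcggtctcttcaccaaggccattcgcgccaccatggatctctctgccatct
A CArG box was found in 1.63% of 32851 promoters, AP-1 in 7.81%, the NF-kB site in 4.51% and the cAMP element in 1.79%. The other matches were an AP-1 motif in Zfp36l1 and in Rc3h1 and a CArG box at the start of Hnrnpd. In Zc3h12a, Rc3h2, Elavl1 and Khsrp these letters were not in the window.

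Smaller overlaps on the opposite strand touch other members. Exons of Zfp36, Zfp36l2, Elavl1, Hnrnpd and Khsrp share 0.96% to 5.65% of their bases with another gene, and reads there could come from either. For Elavl1 the other gene is Ccl25, which had 30, 27 and 28 reads.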

How the data were processed

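One RNA-sequencing library of flushed BM cells was analysed for each of 0, 3 and 5 days of LECT2. The libraries were made from 1 μg of total RNA with the TruSeq RNA kit after oligo(dT) selection and random priming, which does not mark strand. The values start from the tables of pairwise comparisons that the authors deposited. In these tables the authors give whole read counts per gene, and the RPKM that equals the deposited count divided by gene length and by the reads on all listed genes, apart from 18 rows at 0 days and 14 at 3 days, none with more than 36 reads. The submitters' processing notes name the genome build mm8, the methods name Cufflinks for quantitation, and the aligner is not given in the sources used here. The authors' log2 ratios, P values and false discovery rates compare 2 libraries and were not used. The 28 rows without a symbol hold a gene ID, and 17 were named from RefSeq. A gene listed without reads was set to 0 RPKM, and of rows that share a symbol the one with the highest mean RPKM was kept.

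Changes are log2 ratios of RPKM with a pseudocount of 0.1. Intervals of ratios are 95% exact (Clopper-Pearson) intervals of the read counts. The reads were amplified by PCR and carry no molecular identifiers, so that they are not independent molecules, and intervals and floors (3 reads) cover counting error only. Calls of 2-fold or more were counted over genes reaching 1 RPKM in either of the 2 libraries compared, and list medians are over genes averaging 1 RPKM or more. With 1 library per time point no test between time points was made. The members, gene lists and tests were chosen with earlier results of these data known. The named genes were all 9 members, the 3 most abundant genes of each pathway list, and each gene of these lists with a mean of at least 5 RPKM that was at least 2-fold different at 5 days. One gene that this rule names is not reported here.

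Alternatives were pseudocounts of 1 and 0.01, TMM scaling (edgeR 4.0.16), median-of-ratios scaling (DESeq2 1.42.0), scaling to reads that lie outside the top 100 genes by mean RPKM, removal of the trend on gene length (lowess, span 0.3, statsmodels 0.14.6), sums over all rows of a symbol, minimums of 5 RPKM or none, and fold thresholds of 1.5 and 4. Element searches used the protein-coding transcripts of GENCODE M21 (GRCm38), which is not the build of the tables. List genes named in the tables by an older symbol were Hnrnpdl (Hnrpdl), Cnot9 (Rqcd1), Cnot11 (D1Bwg0212e) and Adgre1 (Emr1). Elavl4 and Ly6g were not analysed here. The computations were run in Python 3.11.15 (pandas 2.3.3, numpy 2.4.6, scipy 1.17.1) and R 4.3.3. The calls and intervals were run on simulated Poisson counts with planted changes. These counts had equal depth, no length trend and no spread between mice, so the run checks the code and not these data.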

Additional observations from a re-analysis of the deposited data

How the results depend on the processing

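Every result rests on 1 library per time point, and no alternative can stand in for replicates. At 5 days the direction of Zfp36, Zfp36l1, Zfp36l2, Zc3h12a and Khsrp was the same under every alternative run, and Zfp36 and Zc3h12a stayed at least 2-fold lower under each scaling and pseudocount. With the length trend removed, log2 ratios turned negative for Rc3h1 (−0.47 at 3 days, −0.71 at 5 days), Rc3h2 (−0.28 and −0.52), Elavl1 (−0.35 and −0.42, and −0.091 from 3 to 5 days) and Hnrnpd (−0.23 at 5 days). From 3 to 5 days, where the intervals of Rc3h1 and Rc3h2 included 0, they were −0.25 and −0.26 without the length trend and −0.15 and −0.16 under TMM. Rc3h1 at 5 days was −0.040 under TMM and −0.030 under median-of-ratios scaling, and Elavl1 from 3 to 5 days was −0.0086 and −0.0025. The median of the 9 regulators at 5 days was 0.018 under TMM, 0.029 under median-of-ratios, 0.13 scaled to reads outside the top 100 genes and −0.52 with the length trend removed, and at 3 days −0.28 with the trend removed. From 3 to 5 days it was −0.15, −0.14, −0.031 and −0.25 under the same 4 settings. The count of regulators at least 2-fold higher at 5 days (1) became 0 under each of these 4. At a threshold of 1.5-fold it was 2 at 5 days and 2 from 3 to 5 days, and at 4-fold 0 were higher and 0 lower at 5 days. From 3 to 5 days the count of lower regulators (1) was 2 with the length trend removed, 2 at 1.5-fold and 0 at 4-fold. Pseudocounts and row sums left all 27 single values within their counting intervals.

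The backgrounds moved as well. At 5 days the 1786 higher genes became 816 under TMM, 842 under median-of-ratios, 1086 outside the top 100, 581 with the length trend removed and 1140 with a pseudocount of 1, and the 680 lower genes 1161, 1141, 420 (minimum of 5 RPKM) and 1180 (no minimum). At 3 days the 462 higher genes became 190 with a pseudocount of 1, 293 without the length trend, 236 at 5 RPKM and 828 with no minimum, and the 272 lower genes 120, 118 at 5 RPKM and 686 with no minimum. From 3 to 5 days the 222 higher genes ranged from 52 to 578 and the 394 lower genes from 258 to 716. The causes were not tested.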

Other observations

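The core of the RNA exosome, the barrel that threads RNA from its 3′ end, had lower levels at 3 days than at 0 days. Exosc1 to Exosc9 all had log2 ratios below 0 with intervals that leave out 0, from −0.54 for Exosc6 to −0.23 for Exosc5, and the median over the 15 genes of the exosome and SKI list was −0.36, beside 0.10 for all genes. At 5 days the median of the list was 0.22. These core genes are short, between 1035 and 1789 bases, and with the length trend removed the median at 3 days was −0.09 and Exosc3 and Exosc5 were at 0.00 and 0.13, while the other 7 core genes stayed below 0, from −0.35 for Exosc2 to −0.09 for Exosc7. The 5 genes of the same list with transcripts longer than these had log2 ratios above 0 at 3 days, with 0.99 for Dis3, 0.87 for Ttc37, 0.31 for Exosc10, 0.23 for Dis3l and 0.17 for Skiv2l. Dis3l and Skiv2l came to −0.021 and −0.12 once the length trend was removed, and the other 3 stayed above 0. These genes were picked out after their values were seen.

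A few genes of the decay lists were highest at 3 days and lowest at 5 days. Tob1 had a log2 ratio of 0.55 (0.42 to 0.69) at 3 days and −0.67 (−0.84 to −0.50) at 5 days. Dusp1 was at 0.15 (0.11 to 0.19) and −1.24 (−1.29 to −1.20), and the target Ptgs2 at 0.24 (0.16 to 0.33) and −2.44 (−2.61 to −2.30). Ptgs2 was at −0.07 at 3 days once the length trend was removed, so that it was no longer highest there, while Tob1 was at 0.52 and Dusp1 at 0.20. With the deposited scaling none of the 9 regulators had this course, but under TMM scaling Rc3h1 was at 0.11 at 3 days and −0.040 at 5 days.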
